A study of Homo sapiens with 23 samples.

Results

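The longest H3K4me3 domains of NCI-H23 cells were the 1000 longest of 19744 intervals marked in both H3K4me3 peak lists. In each list, H3K4me3 peaks at most 1000 bp apart were merged, the merged intervals of both lists were intersected, and the intersections were ranked by length. The other 18744 intersections are called the remaining intervals. The members were thus selected on their length in the H3K4me3 lists, so their length and their H3K4me3 values are given as a description. The other 10 targets had no part in the choice.

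NCI-H23 is an established line of cultured cells from a non-small cell lung cancer. Chromatin immunoprecipitation followed by sequencing (ChIP-seq) gave 22 libraries with a peak list, 2 for each of 11 targets, and 1 input library that was not analysed here. The targets were 10 histone marks and BRD2. In the labels, the antibodies to H4K5acK8ac, H3K27ac and H3K4me3 are mouse monoclonals, the first of them made by the submitters, and those to H4K5ac, H4K8ac, H4K12ac, H3K4me1, H3K36me3, H3K9me3, H3K27me3 and BRD2 are rabbit polyclonals. The treatment protocol names the BET inhibitor JQ1 and its solvent DMSO, but no sample label says which a library received, so no treatment was compared. The labels do not say whether replicates came from separate cultures, so the spread between the libraries of a target may be technical.

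H3K4me3, the trimethyl mark on lysine 4 of histone H3, is laid down by COMPASS-family methyltransferases at the start sites of active genes, where it usually forms a peak of a few nucleosomes. Some genes carry far longer stretches of the mark, and such broad domains have been described at genes tied to the identity of a cell and to steady transcription. Around them, H3K4me1 typically lies at promoter edges and at enhancers, H3K36me3 over the bodies of transcribed genes, and H3K27me3, the product of Polycomb repressive complex 2, at silenced developmental genes. Acetylated lysines of histone H4 are bound by the bromodomains of BET proteins such as BRD2.

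The members ran from 4487 to 18098 bp with a median of 5480 bp, against a median of 1791 bp in the remaining intervals. They held 5.98 Mb, which was 14.9% of all bases in the intersection. At least 6 kb was reached by 341 domains, at least 8 kb by 109 and at least 10 kb by 30. Lengths were continuous across the threshold: the last 3 members measured 4488, 4488 and 4487 bp, and the next 3 intervals 4487, 4486 and 4484 bp. The intervals at ranks 1000 and 1001 had the same length and were separated by chromosome order alone.

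Most members were not assembled from many pieces. A single H3K4me3 peak filled 692 of the 1000 domains in list 1 and 647 in list 2, and 3 or more peaks were joined in 69 and 71 domains. Peaks covered 97.7% and 97.6% of the domain bases, so the bridged gaps were a small part of the length. The strongest H3K4me3 peak in a domain had a median fold enrichment, the authors' ratio to local background, of 85.3 in list 1 and 95.1 in list 2. The medians in the remaining intervals were 64.8 and 72.4. For the H3K4me3 peak with the highest −log10 q in a domain, the summits of the 2 lists lay a median of 38 bp apart. In 61 domains the distance was over 1000 bp.

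Comparisons below give the value in list 1 and then in list 2 of each target. Their main measure is the share of interval bases under peaks. The share of intervals touched by a peak is given beside it, and a longer interval has more bases in which a peak can fall. Both groups of intervals were measured in the same 2 lists of a target, and an exact two-sided test over 2 differences cannot reach a p of 0.05, so differences are set against the SD between libraries and no test is reported. Both lists of a target were measured on the same intervals, so this SD leaves out variation between the H3K4me3 libraries. Intervals are not replicates. The sequencing depth behind the lists is unknown, and list length differed between libraries of a target, most for H4K8ac, with 224726 and 116852 peaks. For a share of the 1000 members the 95% Wilson interval is at most 3.09 percentage points wide on either side, and it covers counting error only.

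Acetylation was nearly universal in the longest domains, and H3K27ac was the acetyl mark with the largest difference in bases covered from other H3K4me3 intervals. H3K27ac, the product of the acetyltransferases CBP and p300 at active promoters and enhancers, covered 84.6% and 89.3% of member bases. In the remaining intervals it covered 67.0% and 73.7%. The difference was 16.6 ± 1.47 percentage points (SD between libraries, n = 2), and both lists had the higher value in the members. An H3K27ac peak was present in both lists in 986 members, against a background of 77.9% of all intersection intervals. Its absence from both lists was rare, with 3 members against 15.2% of all intervals.

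The H4 acetyl marks differed less in the bases they covered. H4K5acK8ac, the H4 tail acetylated at both lysines, covered 68.2% and 69.4% of member bases and 63.9% and 69.1% of the bases of remaining intervals. The difference of 2.31 ± 2.81 points (n = 2) was smaller than the spread between its libraries. H4K5ac covered 60.6% and 60.9% of member bases against 58.3% and 58.4%, a difference of 2.40 ± 0.133 points (n = 2) that exceeded the spread. H4K12ac covered 47.0% and 44.8% against 46.3% and 44.7%, and its difference of 0.36 ± 0.478 points did not. H4K8ac covered 39.8% and 17.7% in the members and 39.8% and 17.7% in the remaining intervals. By the mean of both lists the 4 H4 marks stood within 3 points of the remaining intervals. The H4K5ac excess lay mainly in the 250 longest members, where it covered 66.9% and 67.1% of bases. Ranks 251 to 500 had 57.6% and 57.8%, ranks 501 to 750 58.3% and 59.1%, and ranks 751 to 1000 56.0% and 56.0%.

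As a presence or absence call, the H4 marks were found in both lists in 992 members for H4K5acK8ac, 991 for H4K5ac, 976 for H4K12ac and 819 for H4K8ac. The background over all intersection intervals was 85.5%, 83.7%, 79.4% and 56.1% in that order. All 5 acetylation marks were called in both lists in 817 members, against 52.2% of all intervals. In 152 members H4K8ac was the only acetyl mark not called in both lists, against 18.6% of all intervals. Its list 2, the shorter one, touched 82.3% of members and list 1 touched 96.9%. No acetylation mark was called in both lists in 4 members, against 10.2% of all intervals.

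**Figure D1:**
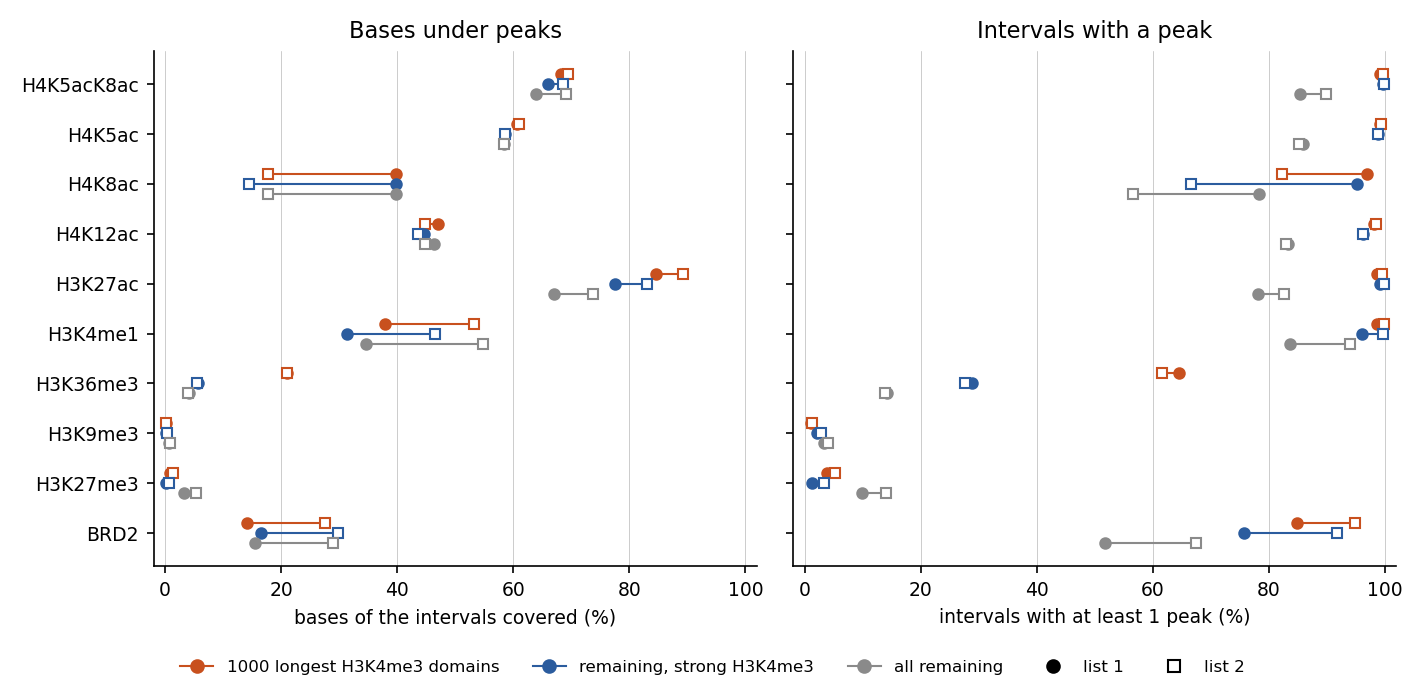
Share of interval bases under peaks (left, percent) and share of intervals with at least 1 peak (right, percent) for the 10 other targets, with list 1 as filled circles and list 2 as open squares, in the 1000 longest domains, in the 4725 remaining intervals with strong H3K4me3 and in all remaining intervals. H3K36me3 covered 21.1% and 20.9% of member bases against 4.08% and 4.01%, and BRD2 touched more members but covered a similar share of bases in each group.

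Part of this contrast was shared by shorter intervals with strong H3K4me3. In 4725 remaining intervals the strongest H3K4me3 fold was at least the median of the members in both lists, and their median length was 2404 bp. Of the members themselves 451 met this cut, so the group is stronger in H3K4me3 than the members as a whole. There H3K27ac covered 77.5% and 83.0% of bases, between the members and all remaining intervals. The members remained higher by 6.70 ± 0.619 points (n = 2). H4K5acK8ac was 1.54 ± 0.886 points higher in the members than in this group and H4K5ac 2.19 ± 0.177 points higher.

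Windows of 1000 bp at the H3K4me3 summit give every interval the same number of bases. They do not fully remove the difference in length. All members are longer than the window, but among the remaining intervals only 14247 reach 1000 bp. Windows on shorter ones include bases outside the interval. In these windows H3K27ac was called in 98.3% and 99.1% of members and in 78.0% and 82.4% of the remaining intervals. H4K5acK8ac was called in 97.7% and 98.8% against 84.8% and 89.3%. Strong remaining intervals reached 99.2% and 99.9% for H3K27ac and 99.0% and 99.5% for H4K5acK8ac, so this share was near its ceiling in both groups. By bases covered in the window the members were higher, with 95.96% and 97.3% against 92.6% and 94.7% for H3K27ac and 88.04% and 90.4% against 83.5% and 86.7% for H4K5acK8ac. Peak height differed among the windows that had an H3K27ac peak. Their median H3K27ac fold was 56.6 and 51.0 in the members, 38.3 and 35.6 at strong remaining intervals and 26.1 and 24.3 at remaining intervals of any strength. Windows without a peak have no fold and were left out, which removes more of the remaining intervals than of the members.

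BRD2, a BET protein that reads acetylated H4, was called in most long domains, with several peaks per domain but no greater density. BRD2 was present in both lists in 840 members, against 51.8% of all intersection intervals, and in neither list in 44 members, against 29.5%. It touched 84.8% and 94.8% of members and 51.8% and 67.5% of the remaining intervals, a difference of 30.2 ± 3.99 points (n = 2). The mean number of BRD2 peaks per domain was 2.07 and 2.73, against 0.745 and 1.01. At least 3 BRD2 peaks were found in 30.2% and 47.2% of members but in 3.44% and 5.05% of the remaining intervals, and the highest number was 14 in list 1 and 15 in list 2. Over the whole BRD2 lists 64.7% and 28.1% of peaks had a q above 0.05, and these counts were not repeated without them.

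Per unit of length the order was the opposite. BRD2 peaks covered 14.2% and 27.5% of member bases and 15.5% and 28.9% of the bases of the remaining intervals, a difference of -1.34 ± 0.0403 points (n = 2). The members had 0.345 and 0.456 BRD2 peaks per kb, against 0.408 and 0.554. In the summit window BRD2 was called in 56.0% and 79.4% of members and in 45.9% and 64.1% of the remaining intervals. At strong remaining intervals the same value was 64.1% and 85.2%, above the members in both lists. By bases covered in the window, BRD2 had 24.5% and 46.4% in the members and 24.6% and 43.1% at strong remaining intervals. That difference of 1.65 ± 2.42 points (n = 2) was within the spread. The sign of the BRD2 difference thus depended on the measure and on the intervals used for comparison.

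BRD2 summits inside the long domains lay on acetylated chromatin. Of 2048 BRD2 summits in list 1, 99.4% and 99.9% fell within H3K27ac peaks of lists 1 and 2, and 98.7% and 99.0% within H4K5acK8ac peaks. H4K5ac held 97.8% and 98.0%, H4K12ac 93.8% and 93.7%, and H4K8ac 89.5% and 55.0%. Each of these shares exceeded the share of member bases that the mark covered. H3K4me1 and H3K36me3 were the reverse. H3K4me1 held 19.0% and 32.8% of these summits while covering 37.9% and 53.2% of the bases, and H3K36me3 held 5.08% and 5.32% while covering 21.1% and 20.9%. The 2698 summits of BRD2 list 2 gave the same order for H3K36me3, with 5.78% and 6.15%. In the remaining intervals H3K27ac held 96.9% and 98.5% of the summits of BRD2 list 1 and H4K5acK8ac 98.7% and 99.1%, so this placement was shared by shorter intervals.

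H3K4me1 was densest at the rim of the long domains, as it was at shorter intervals. It covered 37.9% and 53.2% of member bases and 34.6% and 54.7% of the bases of the remaining intervals. The 2 lists had opposite signs, and the difference of 0.872 ± 3.35 points (n = 2) was within the spread. H3K4me1 was called in both lists in 986 members, against 84.3% of all intervals. Within the summit window it was called in only 16.5% and 34.2% of members, against 55.3% and 77.7% of the remaining intervals. The windows reach past the edges of intervals shorter than 1000 bp. At strong remaining intervals 38.6% and 64.4% of windows had a peak. By bases covered in the window, H3K4me1 had 4.69% and 12.2% in the members and 5.82% and 14.3% at strong remaining intervals. Over whole intervals it covered 31.3% and 46.5% of bases in that group, 6.64 ± 0.0754 points (n = 2) below the members.

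The position of H3K4me1 became visible when domains were aligned at their edges, with both edges pooled. In the first 100 bp inside the edge, H3K4me1 covered 84.9% and 96.1% of bases in the members. This fell to 32.6% and 50.0% at 1 kb inside and to 23.02% and 36.6% at 1.9 kb inside. The remaining intervals had the same rim, with 64.4% and 86.3% at the edge and a lower 9.39% and 19.01% at 1 kb inside. Only 6379 of the 18744 remaining intervals are long enough for that step, which lies nearer their centre than in the members. Outward, H3K4me1 coverage next to the members was still 38.1% and 59.4% at 2 kb outside the edge, against 13.04% and 24.99% for the remaining intervals. H3K27ac also ran past the edges: at 2 kb outside it covered 33.0% and 35.8% next to the members and 10.6% and 10.7% next to the remaining intervals. Over the full 2 kb flanks H3K27ac covered 38.8% and 44.9% against 13.5% and 15.8%, a difference of 27.2 ± 2.70 points (n = 2).

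H4K5acK8ac covered 66.7% and 68.7% of member bases at 1 kb inside, 48.5% and 50.2% at the edge and 18.4% and 19.996% at 1 kb outside. H3K27ac covered 83.1% and 88.8%, 62.7% and 73.5%, and 36.8% and 43.2% at the same positions. BRD2 lay mainly inside the edge, with 15.7% and 30.4% at 1 kb inside, 3.60% and 8.68% at the edge and 0.889% and 2.44% at 1 kb outside.

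**Figure D2:**
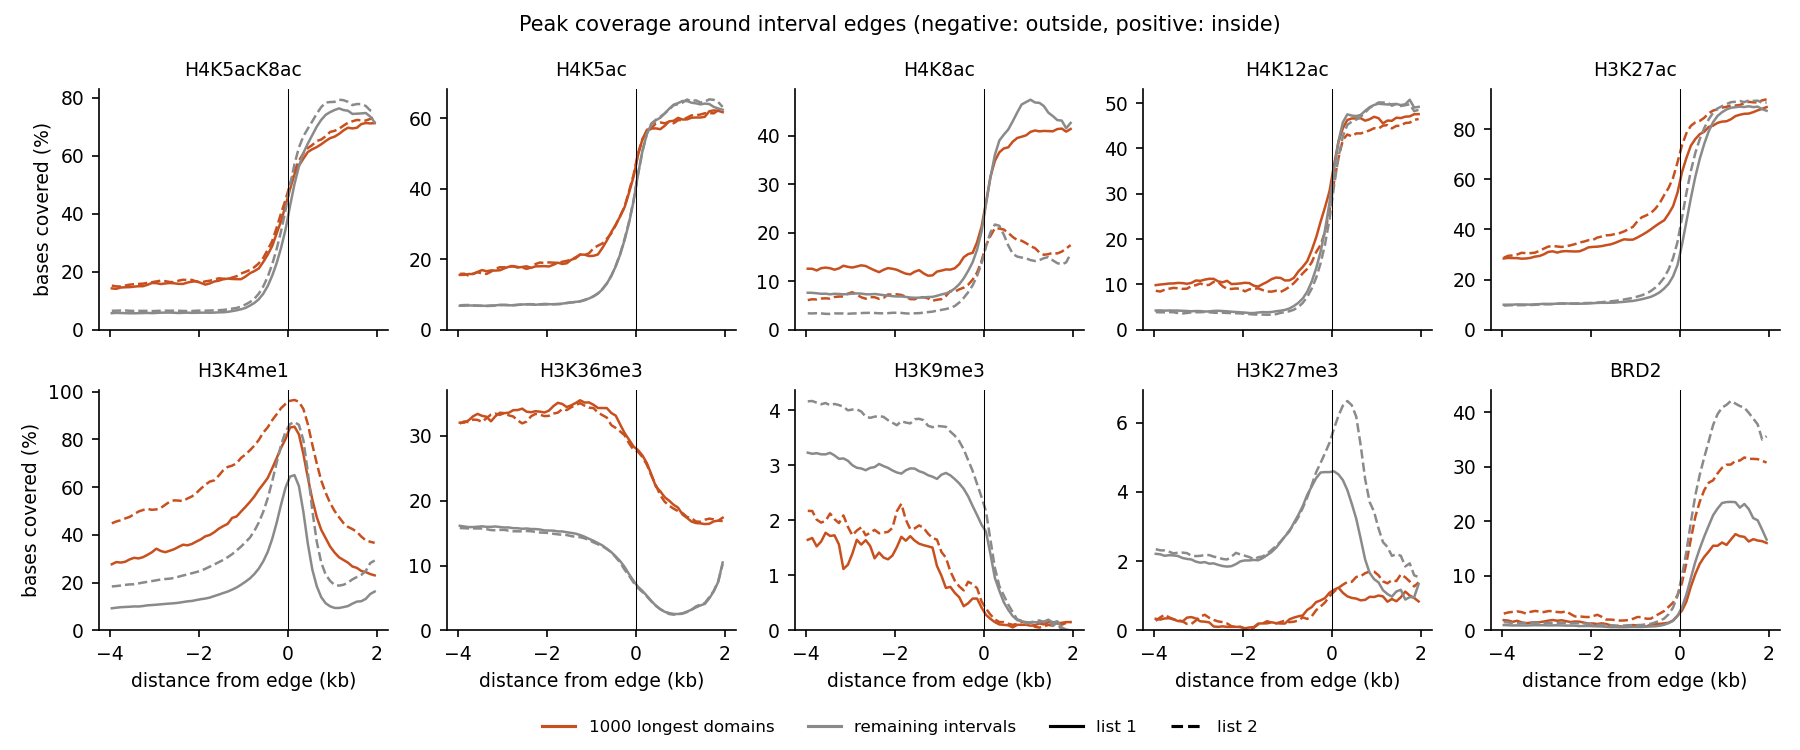
Share of bases under peaks (percent) against the distance from the interval edge in kb, in steps of 100 bp with both edges pooled, for the members (orange) and the remaining intervals (grey) in list 1 (solid) and list 2 (dashed). Each inside step uses only intervals at least 2 times as long as its distance, so grey curves rest on ever fewer and longer intervals towards the right. H3K4me1 covered 84.9% and 96.1% of bases at the edge of the members, BRD2 stayed inside the edge, and H3K36me3 was higher outside than inside.

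H3K36me3, which the methyltransferase SETD2 places behind elongating RNA polymerase, had the largest difference among the 10 targets in the share of intervals with a peak, 49.03 ± 1.72 points (n = 2). It covered 21.1% and 20.9% of member bases and 4.08% and 4.01% of the bases of the remaining intervals, a difference of 16.9 ± 0.0487 points (n = 2). An H3K36me3 peak was present in both lists in 592 members, against a background of 14.0% of all intersection intervals. It was in neither list in 331 members, against 81.0%. Strong remaining intervals had it over 5.74% and 5.56% of bases, 15.3 ± 0.0268 points below the members.

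The share with H3K36me3 fell from the longest class of intervals to the shortest. An H3K36me3 peak was found in 64.5% and 61.6% of the members, 46.2% and 45.4% of the intervals at ranks 1001 to 2000, 34.1% and 32.4% at ranks 2001 to 5000, 17.8% and 17.3% at ranks 5001 to 10000, and 3.04% and 3.02% of shorter ones. The bases covered followed the same order, from 21.1% and 20.9% to 11.1% and 11.0%, 6.39% and 6.18%, 2.68% and 2.71%, and 0.814% and 0.791%. Among the members themselves, the 250 longest had a peak in 79.6% and 76.4% and the 250 shortest in 51.6% and 47.6%. The middle classes, ranks 251 to 500 and 501 to 750, did not keep the order, with 63.2% and 60% against 63.6% and 62.4%.

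H3K36me3 was also more frequent beside the members. Over the 2 kb flanks H3K36me3 covered 33.6% and 32.8% next to the members, 30.01% and 29.4% next to ranks 1001 to 2000 and 13.1% and 12.8% next to all remaining intervals, a difference from the last of 20.2 ± 0.395 points (n = 2). At strong remaining intervals it covered 24.8% and 24.3% of the flanks. Compared with those, the members stood 8.65 ± 0.221 points higher in the flanks and 15.3 points higher inside. At the H3K4me3 summit itself the mark was scarce in every group, with a peak in 11.8% and 11.2% of member windows and 2.58% and 2.36% of the windows of the remaining intervals.

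**Figure D3:**
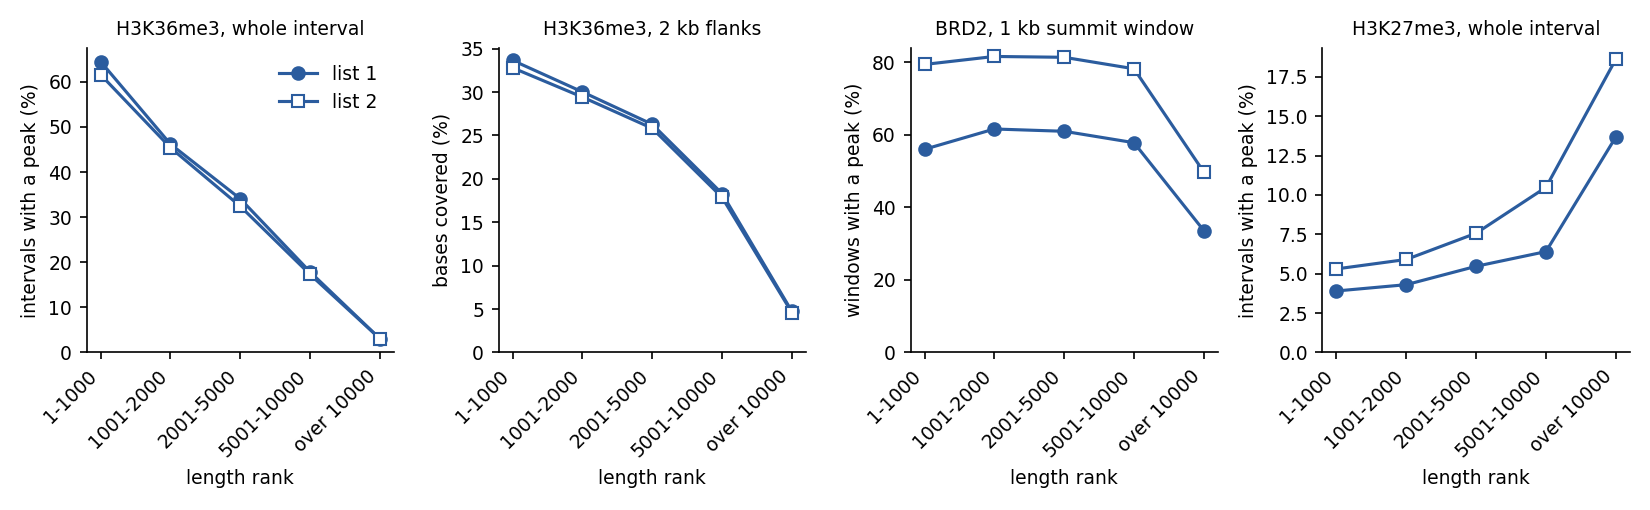
Values by length rank for H3K36me3 peaks in the interval and in its 2 kb flanks, BRD2 in the 1000 bp summit window and H3K27me3 peaks in the interval (percent, list 1 filled circles, list 2 open squares). The share of intervals with H3K36me3 fell from 64.5% and 61.6% in the members to 3.04% and 3.02% in the shortest class, and BRD2 in the summit window was 56.0% and 79.4% in the members and 61.6% and 81.6% at ranks 1001 to 2000.

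H3K36me3 usually lay on a single side. In both lists it was found in exactly 1 of the 2 kb flanks in 519 members, against 27.7% of all intersection intervals. That flank was at the lower coordinate in 250 of them and at the higher coordinate in 269. Both flanks carried the mark in 148 members, against 5.83% of all intervals, and no flank did in either list in 195 members, against 58.4%. In the other 138 members the lists differed. Among the remaining intervals 4948 had the mark in 1 flank and 1004 in both, so single-sided marking was not particular to the members. The 519 domains were turned so that the flank with H3K36me3 came last, which makes the H3K36me3 profile a product of the choice. The positions of the other targets were not used for it.

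Turned in this way, the domains were asymmetric. The summit of the BRD2 peak with the highest −log10 q lay at a median of 25.5% and 25.1% of the domain length from the end without H3K36me3. It lay in the 50% of the domain away from H3K36me3 in 381 of 457 domains in list 1 (83.4%) and in 428 of 503 in list 2 (85.1%). BRD2 covered 24.5% and 44.9% of bases in that part and 5.91% and 13.2% in the part nearer to H3K36me3. Both lists therefore had the higher BRD2 coverage on the same side. With H3K4me3 peaks merged over gaps of up to 3000 bp, the share of summits away from H3K36me3 was 68.8%, against 84.2% as the mean of both lists here.

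H4 acetylation leaned the same way and H3K27ac less so. H4K5acK8ac covered 86.6% and 87.6% of bases away from H3K36me3 and 50.9% and 50.4% nearer to it. H4K5ac covered 78.2% and 78.6% against 43.4% and 43.8%, H4K12ac 63.5% and 61.7% against 30.9% and 28.9%, and H4K8ac 56.6% and 26.9% against 25.3% and 10.3%. The strongest H4 acetyl summits lay at a median of 24.0% to 26.0% of the length over the 8 lists. H3K27ac covered 95.05% and 97.1% against 78.7% and 85.1%, with its strongest summit at 26.75% and 26.99%. Beyond the ends, H4K5acK8ac covered 33.4% and 36.4% of the flank without H3K36me3 and 16.0% and 15.3% of the flank with it. H3K27ac covered 37.8% and 50.0% against 45.2% and 47.5%, with the lists in opposite order.

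H3K4me1 was the mirror image of BRD2. It covered 51.4% and 65.8% of bases in the part nearer to H3K36me3 and 24.8% and 39.1% in the part away from it. Its lowest coverage, 9.77% and 20.1%, came at 25% to 30% of the length, close to the highest BRD2 coverage of 34.2% at 10% to 15% in list 1 and 57.1% at 20% to 25% in list 2. The H3K4me3 summit itself lay at a median of 37.4% and 37.3% of the length, further in than the BRD2 summit. The flank with H3K36me3 carried H3K4me1 over 70.4% and 88.6% of its bases and the other flank over 43.0% and 64.9%.

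**Figure D4:**
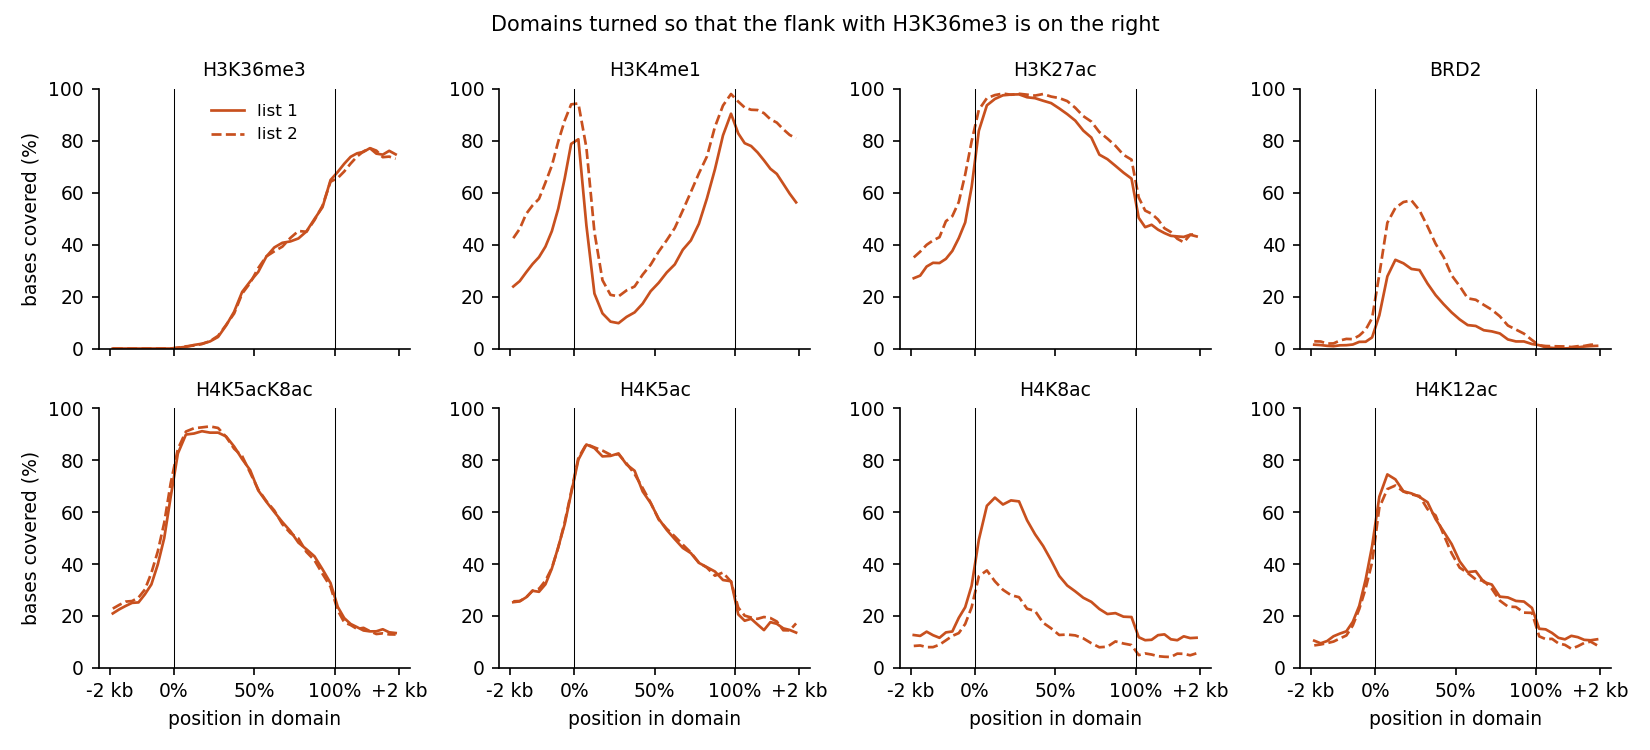
Share of bases under peaks (percent) along the 519 domains with H3K36me3 in exactly 1 flank, scaled to their length in steps of 5% and extended by 2 kb on each side, with the H3K36me3 flank on the right (list 1 solid, list 2 dashed). BRD2 coverage was highest between 10% and 25% of the length, at 34.2% and 57.1% of bases, and H3K4me1 was lowest at 25% to 30%, at 9.77% and 20.1%, with high values at both ends.

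This asymmetry was not limited to long domains. Among 4948 remaining intervals with H3K36me3 in exactly 1 flank, the strongest BRD2 summit lay away from it in 78.4% and 80.0%. As a share of the length the medians lay nearer the middle, at 36.7% and 36.3% for BRD2 and 40.8% and 39.9% for H3K27ac. The remaining intervals are shorter, and distances in bp were not compared. The H3K4me3 summit was central there, at 49.4% in both lists, where in the members it lay towards the end without H3K36me3.

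Members with and without H3K36me3 differed in the other marks. The 592 domains with H3K36me3 in both lists had a median length of 5676 bp and the 331 with it in neither list 5248 bp. BRD2 was called in 91.6% and 98.1% of the first and 72.5% and 88.5% of the second. H3K27ac covered 89.0% and 92.7% of bases against 75.2% and 82.0%. H4K8ac covered 43.4% and 20.2% against 32.4% and 13.1%. H3K27me3 was called in 1.01% and 0.845% against 9.97% and 14.2%. All 5 acetylation marks and BRD2 were called in both lists in 750 members, against 42.0% of all intervals, and these together with H3K36me3 in 499, against 10.7%.

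Marks of repressed chromatin were rare in the longest domains. H3K27me3 was called in both lists in 38 members, against a background of 8.70% of all intersection intervals, and H3K9me3, a mark of heterochromatin, in 9 members, against 2.56%. H3K27me3 covered 0.885% and 1.31% of member bases and 3.18% and 5.31% of the bases of the remaining intervals, a difference of -3.15 ± 1.21 points (n = 2). H3K9me3 covered 0.173% and 0.222% against 0.690% and 0.814%, a difference of -0.554 ± 0.0529 points (n = 2). Set against strong remaining intervals, the direction for H3K27me3 turned, since it covered 0.227% and 0.669% of their bases, 0.647 ± 0.0145 points below the members. For H3K9me3 the difference from that group was -0.0176 ± 0.0186 points, within the spread.

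Where H3K27me3 did occur in a long domain, it was usually partial. The median share of bases it covered in the 38 members was 20.2% and 28.4%, against 41.8% and 62.8% in the 1679 remaining intervals with the mark. At least 50% of bases in both lists was reached in 3 members, against 3.10% of all intervals. In the 38 members H3K27ac covered 38.3% and 48.2% of bases, compared with 86.4% and 90.9% in all other members, and H3K4me1 covered 51.4% and 82.4%, compared with 37.4% and 52.1%. BRD2 was called in 42.1% and 57.9% of the 38, compared with 86.5% and 96.3%. H3K27me3 and BRD2 were both called in both lists in 15 members, against 0.704% of all intervals, and H3K27me3 and H3K36me3 in 5, against 0.0506%. Whether such pairs sit on the same chromosome copies cannot be read from peak lists.

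The 44 members without BRD2 in either list were shorter and less acetylated. Their median length was 4920 bp, against 5528 bp in the 840 members with BRD2 in both lists. H3K27ac covered 46.9% and 55.0% of their bases against 87.8% and 91.8%, and H4K5acK8ac 35.5% and 40.8% against 71.2% and 72.1%. H4K8ac in list 2 was found in 6 of the 44, or 13.6%, against 89.6% of the members with BRD2. H3K27me3 was called in 15 of them in list 1 and 16 in list 2, or 34.1% and 36.4%, against 1.905% and 2.62% of the members with BRD2. The reverse case, all 5 acetylation marks in both lists but BRD2 in neither, occurred in 4 members, against 2.14% of all intervals.

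The single longest domain spanned chromosome 12 from position 122227474 to 122245571 in build hg19, 18098 bp. H3K27ac covered 100% and 99.0% of it and H4K5acK8ac 88.2% and 89.6%. BRD2 formed 7 peaks in each list, over 21.7% and 31.7% of its bases, and H3K36me3 covered 25.5% and 19.5%. The next were chromosome 17 from 27042585 to 27056428 (13844 bp), chromosome 6 from 10403487 to 10416911 (13425 bp), chromosome 1 from 8075152 to 8088487 (13336 bp) and chromosome 10 from 8090260 to 8103494 (13235 bp). They were followed by chromosome 18 from 3446819 to 3459547 (12729 bp), chromosome 17 from 79474495 to 79487111 (12617 bp), chromosome 11 from 65186672 to 65199187 (12516 bp), chromosome 7 from 5457944 to 5470105 (12162 bp) and chromosome 7 from 23504805 to 23516960 (12156 bp). Genes at these positions were not analysed here, since no hg19 annotation was used.

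All 10 longest domains carried BRD2 and the 5 acetylation marks in both lists, and none carried H3K9me3 or H3K27me3 in either. Most members were alike in this. BRD2 and the 5 acetylation marks were called in both lists in 75% of all members. H3K9me3 was in neither list in 98.5% of members and 95.2% of remaining intervals, and H3K27me3 in 94.6% and 85.0%. The 10 longest domains differed in H3K36me3 and BRD2. The chromosome 1 domain had H3K36me3 over 67.5% and 67.4% of its bases and a single BRD2 peak in each list, over 5.81% and 9.30%. The first of the 2 chromosome 7 domains had no H3K36me3 and BRD2 over 45.7% and 61.5%. On chromosome 6 the second BRD2 list had 15 peaks over 42.5% of the domain and the first had 6 over 12.3%, so the BRD2 lists differed by more than 3 times there.

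**Figure D5:**
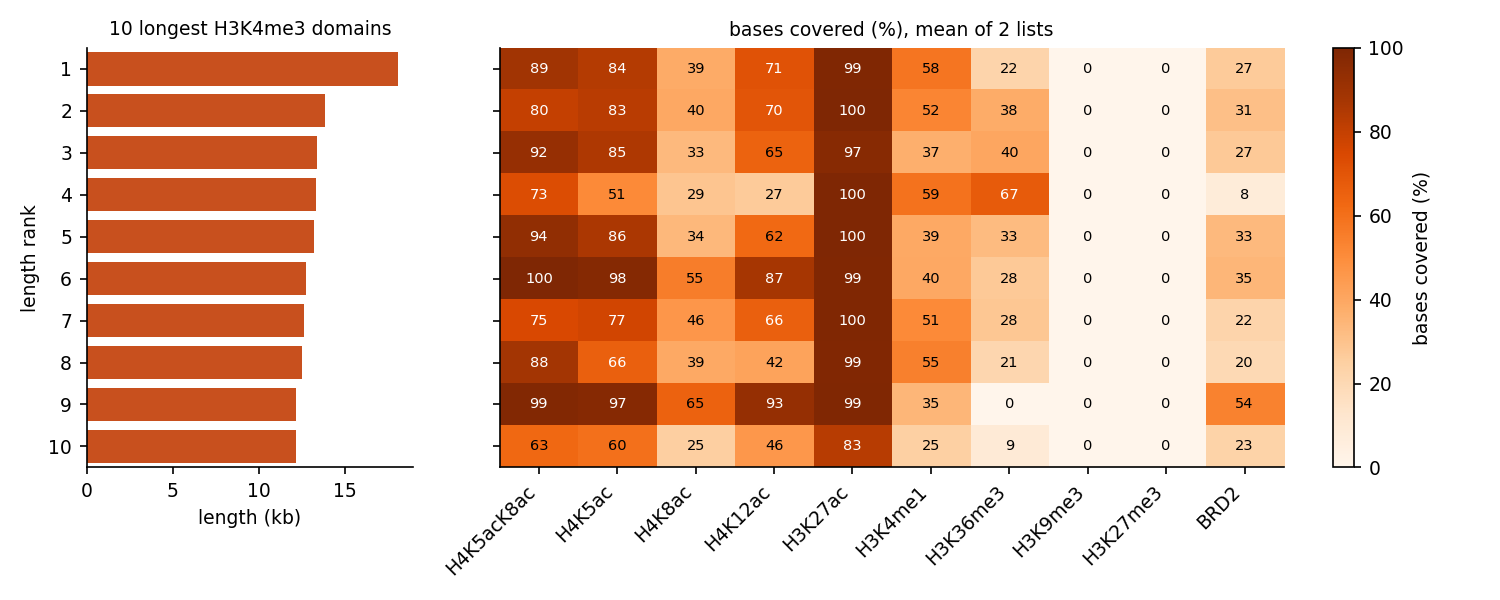
Length in kb of the 10 longest domains, in order of rank (left), and the share of their bases under peaks of each other target, as the mean of both lists (right, percent, color scale from 0 to 100). H3K27ac covered nearly all of each domain except the 10th, H3K9me3 and H3K27me3 were at 0 throughout, and the domain at rank 9 combined the highest BRD2 coverage with no H3K36me3.

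The domains with the most BRD2 peaks, by the mean of both lists, were the chromosome 6 domain above, a domain on chromosome 22 from 30634797 to 30645142 and another on chromosome 10 from 3818945 to 3829093. On chromosome 22 there were 13 and 9 BRD2 peaks over 36.1% and 75.2% of 10346 bp, and the doubly acetylated H4 tail covered all of it in both lists. On chromosome 10 there were 9 and 11 peaks over 27.9% and 73.0% of 10149 bp. H3K36me3 overlapped both, covering 53.6% and 42.5% of the first and 56.6% and 60.2% of the second.

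Domains without BRD2 ranged from acetylated to bare. The longest, chromosome 3 from 187456758 to 187464531 (rank 120), had H3K27ac over 71.2% and 80.8% of 7774 bp but H4K5ac over only 11.1% and 8.40%. The domain on chromosome X from 23798826 to 23805536 (rank 209) had H3K27ac over 96.1% and 100% and H3K36me3 over 26.8% and 26.0%. The domain on chromosome 4 from 134067175 to 134074502 (rank 149) was nearly bare, with H3K27ac in list 2 alone over 8.35% and H4K5acK8ac in list 2 alone over 12.6%. Its strongest H3K4me3 fold was 31.1 and 29.7, well under the medians of 85.3 and 95.1.

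The 3 members mostly covered by H3K27me3 lay on chromosome 14 from 42074189 to 42079591, chromosome 17 from 66192288 to 66197383 and chromosome 20 from 61806134 to 61811052. H3K27me3 covered 87.9% and 81.8% of the first, 55.2% and 64.3% of the second and 85.8% and 86.5% of the third. None had BRD2 in either list, and H3K4me1 covered 45.7% and 83.5%, 88.6% and 100%, and 100% and 100% of them. The chromosome 14 domain also had H3K9me3 over 38.9% and 45.2% and lacked H3K27ac in both lists. The other members without H3K27ac were on chromosome 18 from 55101016 to 55106244 and chromosome 6 from 99279221 to 99284140. On chromosome 18 no acetyl mark and no BRD2 was called in either list, while the strongest H3K4me3 peak had a fold of 84.6 and 88.4. Both folds lie below the medians of the members.

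The members lay on every autosome and on chromosome X. The share of intersection intervals that were members was highest on chromosome 6, at 7.93%, followed by 6.71% on chromosome 19 and 6.50% on chromosome 17, and among the autosomes it was lowest on chromosome 13, at 3.08%. Neighbours at most 100 kb apart formed 109 runs of 2 or more members, holding 260 of the 1000. The largest run had 10 members between 26025421 and 26333096 on chromosome 6, and the next 5 members between 27774029 and 27865074 on the same chromosome.

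Domains in these 2 runs carried acetylation and BRD2 like most members, and few had H3K36me3. In the run of 10, H3K27ac covered 94.8% and 96.9% of bases, H4K5acK8ac 84.8% and 90.0%, and H3K4me1 23.2% and 33.1%. BRD2 was called in both lists in 9 of the 10 and H3K36me3 in 1. In the run of 5, BRD2 was called in both lists in all 5 and H3K36me3 in none in either list, while H3K27ac covered 99.3% and 100%. The runs were chosen after their positions were seen, and of all 1000 members 592 had H3K36me3 and 840 BRD2 in both lists.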

How the data were processed

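Peak lists of 22 ChIP-seq libraries (11 targets, 2 each) were used as deposited, in coordinates of hg19. BWA, MACS2 and hg19 are named in the submitters' processing notes, with no version or settings. Groups and replicate numbers came from the titles. For the second H3K9me3 library the label description carries another replicate number than the title, which was followed. Each deposited list gives, per peak, a fold enrichment (a ratio to local background). It was used within a list to describe heights and to choose the remaining intervals with strong H3K4me3. The deposited −log10 p was not used, and the deposited −log10 q ranked and filtered peaks. The deposited score, 10 times −log10 p, was not used. The deposited summit offset in bp from the peak start placed summits. No read counts are given, so depth is unknown. Between 0.348% (H3K4me1 list 2) and 64.7% (BRD2 list 1) of the peaks of a list had a q above 0.05.

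Overlaps of at least 1 bp were counted in Python (version 3.11.15). Versions of its packages were 2.4.6 for numpy, 2.3.3 for pandas, 1.17.1 for scipy and 3.10.9 for matplotlib. Peaks of a list were merged before bases were counted. The interval functions were tested on simulated data. The summit window spans 500 bp on each side of the summit of the H3K4me3 peak with the highest −log10 q, averaged over both lists. Named regions are the 10 longest members, 3 on each side of the length threshold (by length only), the 3 longest members without BRD2, those without H3K27ac or with H3K27me3 over at least 50% of bases, and the 3 with most BRD2 peaks. The 2 runs of neighbouring members were added after their values were seen. Members, lists and measures were chosen with earlier results of these data known. Planned gene lists and base composition were not analysed here, as no hg19 genome or annotation was used.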

Additional observations from a re-analysis of the deposited data

How the results depend on the processing

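Values are differences between members and remaining intervals in percentage points of bases covered, unless stated: 4.32 for the mean of the 5 acetylation marks, -1.34 for BRD2, 0.872 for H3K4me1, 16.9 for H3K36me3 and -1.85 for the mean of H3K9me3 and H3K27me3. Over 245 values under alternatives, including single marks and summit positions, 117 stayed within 1 SD between the 2 libraries, 101 moved further with the same sign and 27 changed sign. SDs from 2 libraries are small for several targets, so a move is easily counted, and the cause was not tested. The H3K36me3 and the mean acetylation differences kept their sign in all alternatives run. That mean combines 16.6 for H3K27ac with 2.40 or less for each H4 mark. Among the single acetyl marks, H3K27ac and H4K5ac kept their sign in all 19 alternatives. H4K8ac changed sign in 12 of them, and H4K5acK8ac and H4K12ac in 2 each.

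With touching H3K4me3 peaks alone merged, BRD2 was -0.136, H3K4me1 -3.29, H3K36me3 16.7 and H4K8ac 0.228. With gaps of up to 3000 bp, acetylation was 2.22, BRD2 -3.47, H3K4me1 7.19, H3K36me3 12.98, H4K5acK8ac -0.42 and H4K12ac -0.166. With 500 members, acetylation was 6.28, BRD2 -1.23, H3K36me3 19.4 and H4K8ac 1.46. With 2000 members, acetylation was 2.40, BRD2 -1.01, H3K4me1 -1.09, H3K36me3 13.9, H4K5acK8ac -0.277, H4K5ac 0.068 and H4K12ac -1.41. With peaks at q of at most 0.05, BRD2 was -1.46. With the 10000 strongest peaks of each list, acetylation was 11.7, H3K4me1 11.5, H3K36me3 10.9, the repressive marks -0.365 and H4K8ac 2.81. With H3K4me3 intervals built from peaks past a −log10 q of 5, BRD2 was -1.41 and H3K36me3 16.2. On autosomes they were -1.44 and 16.997. Against remaining intervals of at least 1000 bp, BRD2 was -1.88, H3K36me3 16.7 and H4K8ac 0.176.

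In the summit window, bases covered gave 16.04 for acetylation, 9.24 for BRD2, -21.8 for H3K4me1, 3.63 for H3K36me3, -2.98 for the repressive marks and 8.09 for H4K8ac. Windows with a peak gave 11.5, 12.7, -41.1, 9.03, -5.71 and 7.06 in that order.

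The following alternatives were chosen after seeing the data. Intervals with a peak gave 16.3 for acetylation, 30.2 for BRD2, 10.3 for H3K4me1, 49.03 for H3K36me3, -4.93 for the repressive marks and 22.1 for H4K8ac. Against remaining intervals with strong H3K4me3, the values were 2.75, -2.29, 6.64, 15.3, 0.315 and 1.63. In windows whose H3K4me3 summits lay at most 1000 bp apart they were 16.7, 9.79, -22.8, 3.57, -3.00 and 8.93. Flanks of 1 or 5 kb were also tried for the turned domains.

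Leaving out a library of the other target or of H3K4me3 gave 3.67 to 5.01 for acetylation, -1.37 to -1.08 for BRD2, 16.9 to 17.5 for H3K36me3 and -2.30 to -1.41 for the repressive marks. H3K4me1 ran from -1.50 (without replicate 1) to 3.24 (without replicate 2), so 1 library sets its sign. H4K8ac was between -0.0534 and 0.262.

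Lists with the same replicate number shared only that number. Correlations of their deviations were between -0.190 and 0.278 in 55 target pairs, with 7 above 0.1. The replicate block, which combines same-numbered lists alone, gave 4.82 for acetylation, -1.07 for BRD2, 1.07 for H3K4me1, 17.4 for H3K36me3, -1.97 for the repressive marks and 0.233 for H4K8ac.

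Unknown depth limits every comparison that rests on weak peaks, among them those on both BRD2 lists and H4K8ac list 2. The lists give called peaks only, so signal below the threshold was not measured, and a wider peak call covers more bases. Copy number in this cell line was not examined.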
